A study of Mus musculus with 24 samples.

Results

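The comparison described here sets 8 livers taken 4 h after the last injection of IUB288 against 8 livers taken 22 h after the last injection of vehicle, 16 of the 24 libraries of the series. Membership followed the sample titles, and every gene of the liver count table entered. All mice had diet-induced obesity and had been injected for 4 d. IUB288 is an agonist of the glucagon receptor that is known by its code name. The other 8 livers came from mice given IUB288 for 4 d and killed 22 h after the last injection, and they serve here as values at the vehicle livers' time since injection. Time since injection therefore differs between the sides, 4 h against 22 h, and for every gene below the drug and the time since injection cannot be told apart from these 16 livers alone. Strain, sex, age, diet, dose and the clock time of sampling are not given in the sources used here. Each library is 1 mouse, described as a biological replicate, and the RNA is messenger RNA from pieces of whole frozen liver, so that for any gene fewer cells of a type and less RNA per cell cannot be told apart.

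Glucagon acts on liver through a receptor coupled to the stimulatory G protein, which switches on adenylyl cyclase. The cAMP that results frees the catalytic subunits of protein kinase A (PKA), and these phosphorylate CREB, a transcription factor whose targets include genes of glucose production and genes that brake the signal itself. The hormone is known for raising hepatic glucose output and amino acid breakdown and for lowering lipid synthesis. The liver also runs its own circadian clock, in which BMAL1 (gene Arntl) and CLOCK drive the Per, Cry and Rev-erb genes that in turn hold them back.

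Library totals were 24.7 to 35.2 M counts at 4 h and 14 to 44.1 M counts in vehicle. The 10 highest genes of each library took 20.0% to 21.6% of its counts at 4 h and 24.1% to 26.3% in vehicle. Levels are CPM, counts scaled to a common library size, which are not corrected for gene length and are compared here within a gene. The 12 hepatocyte markers, among them Alb, were all present, with summed levels of 99189.6 to 131293 CPM at 4 h and 88064 to 139565 CPM in vehicle. Vehicle replicate 1 stood apart: the thermogenic gene Ucp1, which marks brown adipocytes, reached 1388 CPM there, and no other of the 24 libraries exceeded 0.576 CPM. The summed level of skeletal muscle markers was 249 CPM in that library and at most 2.09 CPM in the other vehicle livers. Results that moved by more than 1.5 times or lost their call without it are given both ways.

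Of 11508 genes tested, 5091 (44.2%) were called at a limma-voom adjusted p under 0.05, 2501 higher (21.7%) and 2590 lower (22.5%) at 4 h. The median log2 fold change over all genes tested was -0.07. At least 2-fold changes among these calls numbered 492 higher and 749 lower, and at least 4-fold changes 146 and 155. A test for a change of more than 1.5-fold kept 374 higher (3.25%) and 352 lower (3.06%). In 1140 of all genes tested (9.91%) every treated liver lay above every vehicle liver, and in 710 (6.17%) every treated liver lay below, whether called or not. Without vehicle replicate 1, 4665 of the 5091 calls were kept, 426 were lost, 421 others were gained and none changed direction, all counted over the same 11508 genes. The fit without that library tested its own set of genes, of which 5109 of 11614 (44%) were called. Values of the livers 22 h after IUB288 are given beside these where they bear on the time since injection, and 36.8% of all genes were called between them and the vehicle livers. The first principal component, with 36.3% of the variance, separated the 8 treated from the 8 vehicle livers, and the second, with 11.2%, was led by vehicle replicate 1. Since 44.2% of all genes tested were called, a called share of that size within a gene group is no more than the background.

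**Figure D1:**
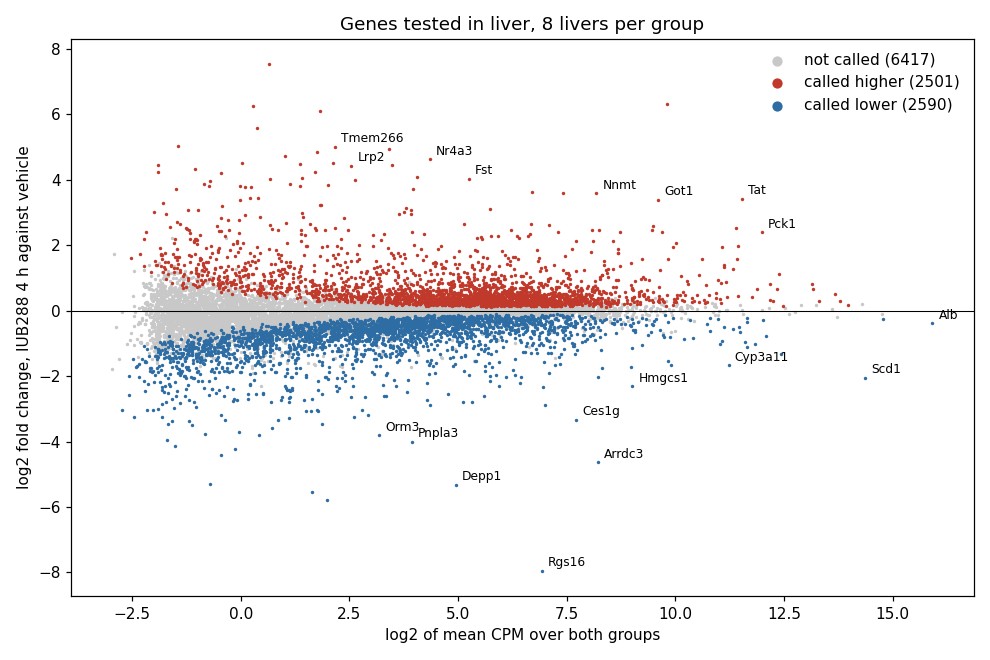
Each point is 1 of the 11508 genes tested, with the log2 of its mean CPM over both groups on the horizontal axis and its log2 fold change (IUB288 4 h against vehicle, 8 livers each) on the vertical axis. Calls were spread over the whole range of levels, with 2501 higher and 2590 lower, and Rgs16 had the lowest value, -7.95.

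Promoters of Pck1, Nr4a3, Btg2 and Mdh2 are printed because their genes rose and because their windows hold the motif to which CREB is known to bind, in full (TGACGTCA) or as its shorter core (TGACG on either strand). Each window runs from 250 bases before to 50 after the gene start in the RefSeq tables for GRCm38.p6, read 5′ to 3′ on the gene's strand, with the motif in capitals. Btg2 (chr1:134079106-134079405, minus strand) and Mdh2 (chr5:135778399-135778698, plus strand) were the genes searched whose window held the full motif. The search took genes called higher in the CREB, phosphodiesterase, gluconeogenesis and immediate early lists. It left out the chromosome that carries Crem, so Crem itself was not searched. Pck1 (chr2:173152823-173153122, plus strand) and Nr4a3 (chr4:48045055-48045354, plus strand) were chosen after their values were seen.
Btg2: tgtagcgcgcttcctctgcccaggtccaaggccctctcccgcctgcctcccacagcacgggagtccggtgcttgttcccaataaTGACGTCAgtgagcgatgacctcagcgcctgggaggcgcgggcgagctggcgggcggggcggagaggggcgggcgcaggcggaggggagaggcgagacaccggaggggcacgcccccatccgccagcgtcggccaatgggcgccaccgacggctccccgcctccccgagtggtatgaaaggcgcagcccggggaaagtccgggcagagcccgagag
Mdh2: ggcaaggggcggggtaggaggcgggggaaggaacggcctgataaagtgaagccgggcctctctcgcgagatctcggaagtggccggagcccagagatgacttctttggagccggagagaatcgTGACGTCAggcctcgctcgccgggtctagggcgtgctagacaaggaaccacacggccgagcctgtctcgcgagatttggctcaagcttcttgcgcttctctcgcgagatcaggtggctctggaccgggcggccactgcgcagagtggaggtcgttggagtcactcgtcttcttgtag
Pck1: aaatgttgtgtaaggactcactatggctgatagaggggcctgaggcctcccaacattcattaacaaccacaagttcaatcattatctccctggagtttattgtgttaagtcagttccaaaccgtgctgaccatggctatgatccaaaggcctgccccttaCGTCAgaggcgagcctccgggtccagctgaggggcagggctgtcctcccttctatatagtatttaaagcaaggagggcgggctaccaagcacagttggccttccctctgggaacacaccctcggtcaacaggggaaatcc
Nr4a3: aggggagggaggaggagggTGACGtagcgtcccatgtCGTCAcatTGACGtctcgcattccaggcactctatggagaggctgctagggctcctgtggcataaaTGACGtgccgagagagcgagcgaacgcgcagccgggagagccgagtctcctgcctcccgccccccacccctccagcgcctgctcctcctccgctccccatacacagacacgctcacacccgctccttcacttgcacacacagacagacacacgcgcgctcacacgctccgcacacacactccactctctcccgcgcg
The full motif, which is the same on both strands, starts 166 bases before the start of Btg2 and 127 before that of Mdh2. Pck1 has 1 core, 90 bases before the start and on the other strand, and Nr4a3 has 4. The full motif was in 3.74% of 2273 windows of genes called higher, 1.65% of 2478 windows of genes called lower and 2.37% of 10305 windows of all genes tested. The core, which lies within the full motif, was searched after the data were seen and was in 33.7%, 21.5% and 26.6% of the same windows. Genes can have several windows, and a match describes letters, not a bound site.

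Several genes at low levels in vehicle livers rose steeply at 4 h. Fam222a ranged from 0.256 to 1.34 CPM in vehicle livers (median 0.564) and from 11.2 to 31.2 CPM at 4 h (median 17.7), a log2 fold change of 4.93 ± 0.46 (SE, adjusted p = 3.31e-09). Fst, which codes for follistatin, a secreted protein that binds activins, went from a median of 4.57 CPM (range 2.95 to 5.71) to 68.0 CPM (range 59.7 to 90.7), a log2 fold change of 4.04 ± 0.24 (SE, adjusted p = 1.54e-12). Lrp2, the endocytic receptor megalin, went from 0.513 CPM (range 0.0777 to 0.960) to 11.4 CPM (range 3.02 to 17.0), a log2 fold change of 4.43 ± 0.85 (SE, adjusted p = 1.39e-04). In all 3 genes every treated liver was above every vehicle liver. The rule that named the largest rises and falls asked for ranges that do not overlap. For genes it took, the lack of overlap is therefore part of the choice and not a separate result. Lrp2 is also a marker of kidney tubules, and of the other defining markers of that tissue Slc34a1, a phosphate carrier, reached at most 0.0729 CPM in a treated liver. Tmem266, Akr1b7, Gucy2c, the guanylyl cyclase C receptor, Tpte and Nptx1 rose in the same way, by log2 fold changes of 5.02, 4.24, 4.00, 3.84 and 3.22.

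Of 15 RGS proteins and arrestins, which shorten or redirect receptor signals, 1 was higher and 4 lower, and 2 were higher without vehicle replicate 1, without vehicle replicate 5 or without 4 h replicate 4. The deepest fall of all was in Rgs16, a GTPase-activating protein that shortens signalling through inhibitory and Gq-type G proteins. Its level was 140.2 to 354 CPM in vehicle livers (median 235) and 0.220 to 2.81 CPM at 4 h (median 0.822), a log2 fold change of -7.95 ± 0.59 (SE, adjusted p = 6.53e-11). Arrdc3, an alpha-arrestin that directs membrane receptors to degradation, was at 456 to 772 CPM in vehicle livers (median 550.0) and 16.5 to 29.6 CPM at 4 h (median 23.0), a log2 fold change of -4.63 ± 0.18 (SE, adjusted p = 1.11e-15). Depp1, a gene known as a target of FOXO factors, was at 29.3 to 93.7 CPM in vehicle livers (median 60.6) against 0.367 to 2.30 CPM at 4 h (median 1.5), a log2 fold change of -5.33 ± 0.50 (SE, adjusted p = 3.60e-09). The groups were far apart in each of these 3 genes, and the rule for the largest falls asked for ranges apart, here and for the next genes. Serpina4-ps1, a serpin pseudogene, R3hdml, Gpr12, an orphan receptor of the Gs class, and Chrna4, a nicotinic receptor subunit, also fell without overlap (log2 fold changes -5.55, -3.08, -3.05 and -3.18). At 22 h after IUB288 the medians of Rgs16, Arrdc3 and Depp1 were 139, 441 and 34.8 CPM, and the direct test of 22 h against 4 h gave log2 differences of 7.10, 4.18 and 4.57 (adjusted p = 1.05e-09, 1.11e-14 and 9.61e-08; 29.3% of all genes were called in that test).

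**Figure D2:**
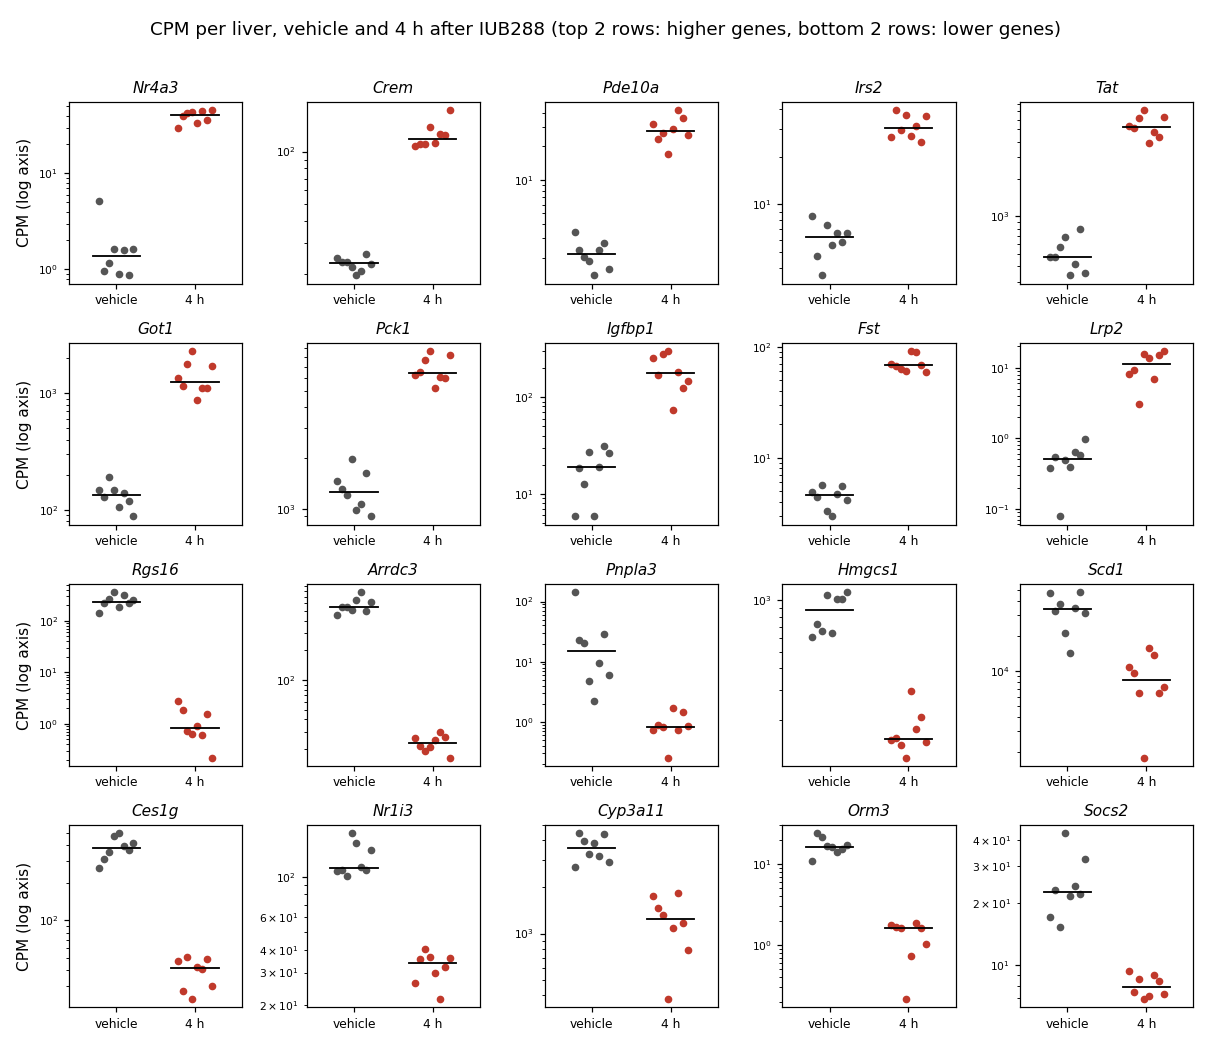
Points are single livers, 8 per group, on a log axis of CPM for 20 genes, and the bar is the median. In 19 of the panels the groups do not overlap, and in Scd1 the highest treated liver (15687 CPM) lies above the lowest vehicle liver (14313 CPM). Genes named as the largest rises and falls were chosen with ranges apart.

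Genes of the glucagon signal itself were called at shares near the 44.2% over all genes tested. Of 20 tested genes for the receptor, G proteins and cyclases 3 were higher and 7 lower (50% called). Of 15 for PKA subunits, inhibitors and anchors 3 were higher and 3 lower (40%), and of 17 phosphodiesterases 6 and 2 (47.1%). The receptor gene Gcgr had 86.3 to 132 CPM in vehicle livers (median 119.9) and 80.8 to 99.2 CPM at 4 h (median 88.3), a log2 fold change of -0.39 ± 0.09 (SE, adjusted p = 0.00147). Its groups overlapped through vehicle replicate 1 and did not without it. Adcy6, a major cyclase of hepatocytes, was lower at 45.3 to 65.4 CPM (median 56.7) than in vehicle livers at 77.5 to 118 CPM (median 87.1), a log2 fold change of -0.69 ± 0.08 (SE, adjusted p = 2.48e-07). Adcy1 and Adcy8, calcium-activated cyclases best known from brain, rose from at most 0.510 and 0.398 CPM in any vehicle liver to medians of 2.08 and 1.82 CPM, log2 fold changes 3.45 and 3.39, with no overlap. The inhibitory G protein gene Gnai3 rose by a log2 fold change of 0.70, and the regulatory PKA subunit gene Prkar1a by 0.36, as did Akap11, which anchors the kinase (0.69), while Akap7, another anchor, fell (-0.63). Without vehicle replicate 1, 5 genes of the receptor, G protein and cyclase list were higher instead of 3.

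Phosphodiesterases break down cAMP and cGMP, and Pde10a led the members that rose. Pde10a ranged from 1.39 to 3.41 CPM in vehicle livers (median 2.18) and from 17.3 to 42.1 CPM at 4 h (median 27.5), a log2 fold change of 3.71 ± 0.25 (SE, adjusted p = 1.10e-11). Pde4b went from a median of 19.5 CPM (range 13.8 to 52.9) to 68.3 CPM (range 55.1 to 98.2), a log2 fold change of 1.65 ± 0.19 (SE, adjusted p = 7.22e-08). Pde4d went from 33.0 CPM (range 28.9 to 47.7) to 77.1 CPM (range 66.5 to 85.6), a log2 fold change of 1.12 ± 0.11 (SE, adjusted p = 1.26e-08). No treated liver overlapped with the vehicle livers in these 3 cAMP-degrading enzymes, nor in Pde7b or in the insulin-activated Pde3b, which rose by log2 fold changes of 1.43 and 0.63. Pde8a also rose (log2 fold change 0.46), whereas Pde9a, which is specific for cGMP, fell (-0.47), as did Pde1b (-0.84). Without vehicle replicate 2, 4 phosphodiesterases were lower instead of 2.

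Among CREB factors and coregulators 13 of 19 tested members were higher and none lower by limma (1 at an unadjusted p under 0.05), with a median log2 fold change of 0.25. In this list 1 was lower without vehicle replicate 2, without vehicle replicate 4 or without 4 h replicate 1. Nr4a3 was at 0.865 to 5.15 CPM in vehicle livers (median 1.39) and 29.6 to 45.3 CPM at 4 h (median 41.0), a log2 fold change of 4.63 ± 0.25 (SE, adjusted p = 2.29e-13). The other NR4A orphan receptor genes, Nr4a2 and Nr4a1, rose to medians of 24.9 and 24.8 CPM from 3.17 and 2.39 CPM (log2 fold changes 3.15 and 3.01). Crem, whose short product ICER represses CREB targets, was at 107 to 172 CPM at 4 h (median 118) against 19.6 to 26.0 CPM in vehicle livers (median 23.0), a log2 fold change of 2.46 ± 0.09 (SE, adjusted p = 6.07e-16). These 4 genes and Sik1, a kinase that holds back CREB coactivators (log2 fold change 2.64), showed no overlap between groups. The coactivator gene Ppargc1a rose by a log2 fold change of 2.28 and Ppargc1b by 0.55. Creb1, Atf1 and Crebbp, which code for the factors and the acetyltransferase through which the signal acts, rose by log2 fold changes of 0.29, 0.21 and 0.42.

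Of 26 immediate early genes tested 7 were higher and 4 lower, 42.3% called against 44.2% over all genes tested. Without vehicle replicate 1, which was high for several of them, 12 were higher and 3 lower. The lower members were 2 without vehicle replicate 5 or without 4 h replicate 6. Myc was at 19.3 to 72.3 CPM at 4 h (median 32.0) and 5.51 to 17.0 CPM in vehicle livers (median 7.78), a log2 fold change of 1.88 ± 0.33 (SE, adjusted p = 4.31e-05). Jund, Btg1, Btg2 and Atf3 rose by log2 fold changes of 0.95, 0.64, 1.04 and 1.23. Fos and Egr1, the classic members, were not called, with log2 fold changes of 0.34 and -0.25 (adjusted p = 0.302 and 0.488). Klf10 fell without overlap (log2 fold change -1.01). In the list of dual-specificity phosphatases, GADD45 and Polo kinases 4 of 14 were higher and 1 lower, or 2 lower without 4 h replicate 1. Plk3 led it, at 224 to 449 CPM at 4 h (median 294) against 13.5 to 37.9 CPM in vehicle livers (median 28.1), a log2 fold change of 3.59 ± 0.17 (SE, adjusted p = 4.50e-14), and Dusp8, Gadd45g and Dusp1, which switches off MAP kinases, rose by 2.95, 2.95 and 1.82.

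In the core clock loop 8 of 16 genes were higher and 3 lower. Arntl was at 1.85 to 4.70 CPM in vehicle livers (median 2.42) and 10.0 to 20.7 CPM at 4 h (median 12.8), a log2 fold change of 2.31 ± 0.21 (SE, adjusted p = 1.95e-09). Cry1, a repressor of the loop, was at 7.83 to 17.7 CPM in vehicle livers (median 11.9) against 22.0 to 41.5 CPM at 4 h (median 31.9), a log2 fold change of 1.5 ± 0.17 (SE, adjusted p = 7.75e-08). Per3 was lower, with 12.1 to 22.8 CPM in vehicle livers (median 13.8) and 4.43 to 9.17 CPM at 4 h (median 5.21), a log2 fold change of -1.42 ± 0.16 (SE, adjusted p = 1.01e-07). The groups did not overlap for these 3 genes. Per1 rose by a log2 fold change of 0.97 and Nr1d1, the gene of Rev-erb alpha, fell (-0.78), both with overlapping ranges, while Per2 and Cry2 were not called (adjusted p = 0.632 and 0.980). Rora, Clock and Nr1d2 rose by log2 fold changes of 0.77, 0.52 and 0.49.

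Output genes of the clock moved as well, 7 of 15 higher and 5 lower. Noct, the rhythmic nocturnin, and Nfil3, a repressor at D-box sites, rose by log2 fold changes of 2.34 and 1.84. Dbp and Hlf, activators at the same sites, and the cell cycle kinase gene Wee1 fell (log2 fold changes -1.15, -0.86 and -1.63). All 5 had separate ranges. At 22 h after IUB288, the vehicle livers' time since injection, medians were 3.14 CPM for Arntl, 12.8 CPM for Per3, 64 CPM for Dbp and 43.4 CPM for Noct, against vehicle medians of 2.42, 13.8, 51.3 and 38.3 CPM. The direct test of 22 h against 4 h gave log2 fold changes of -1.96, 1.05, 1.36 and -2.13 (adjusted p = 2.61e-08, 2.31e-05, 1.53e-09 and 1.78e-06). Cry1 at 22 h was below both other groups, at a median of 7.31 CPM, and Nr1d1 above both, at 80.0 CPM. For clock genes at 4 h against vehicle the drug, the time since injection and the hour of sampling, which is not given, cannot be told apart.

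**Figure D3:**
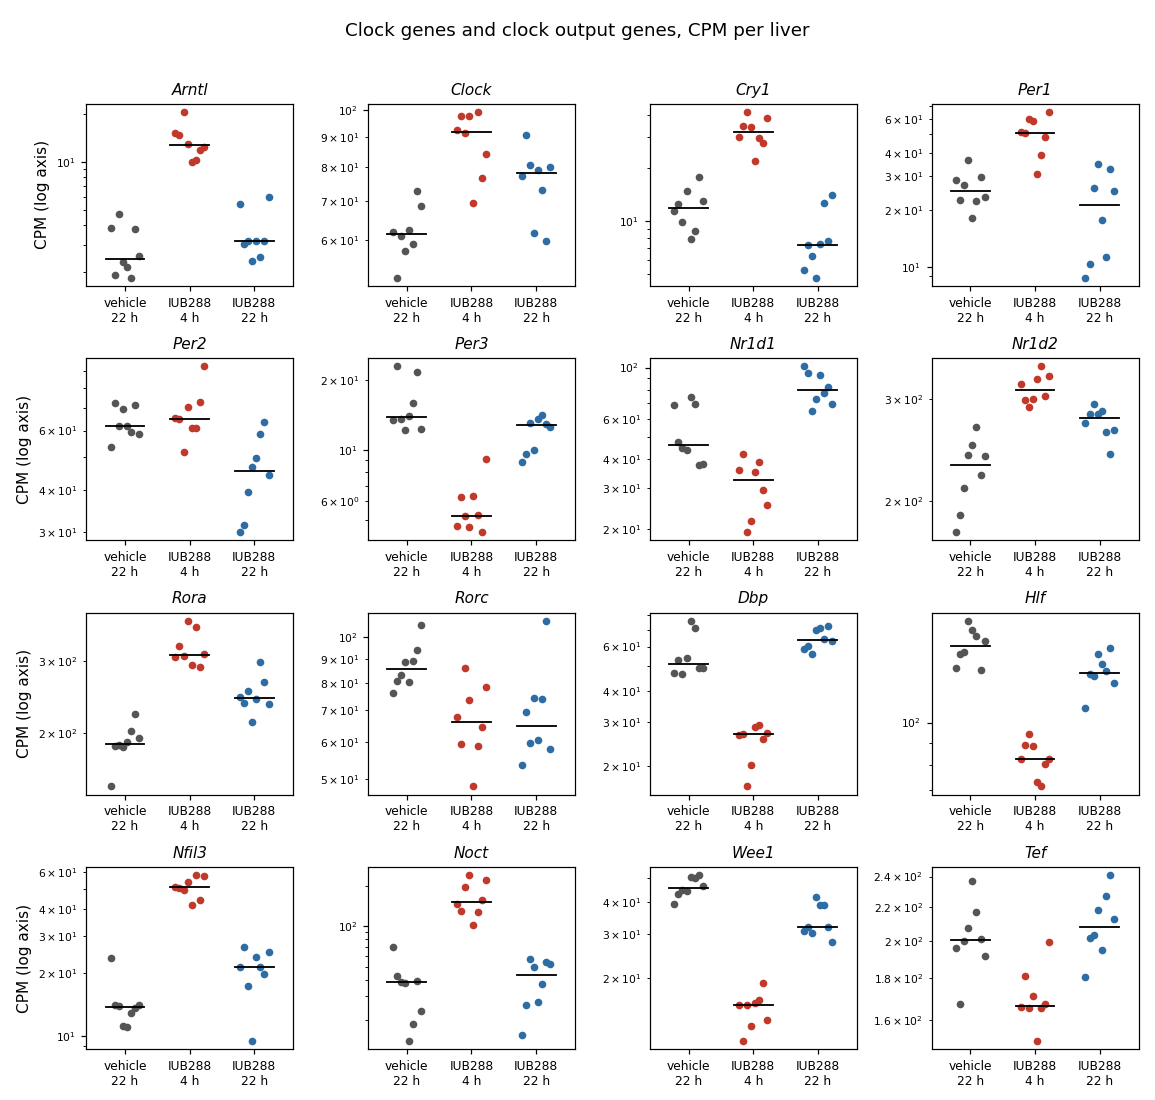
Points are single livers, 8 per group, on a log axis of CPM for 10 genes of the core clock and 6 output genes, with vehicle at 22 h, IUB288 at 4 h and IUB288 at 22 h after the last injection, and the bar is the median. Arntl, Cry1, Nfil3 and Noct were highest at 4 h, Per3, Dbp, Hlf and Wee1 lowest.

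Insulin signalling had 8 of 20 members higher and 3 lower. Irs2, an adaptor that carries the insulin signal in liver, was at 3.58 to 8.47 CPM in vehicle livers (median 6.24) and 24.6 to 39 CPM at 4 h (median 30.3), a log2 fold change of 2.35 ± 0.15 (SE, adjusted p = 3.47e-12). Irs1, its relative, rose by a log2 fold change of 1.57, and Igfbp1, a secreted binding protein for insulin-like growth factors that insulin is known to repress, by 3.62. Each of these genes had separate ranges. Socs2, a target and brake of growth hormone signalling, fell (log2 fold change -1.56).

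Gluconeogenesis had 11 of 21 members higher and 2 lower, median log2 fold change 0.24. Got1, the cytosolic aspartate aminotransferase of the malate-aspartate exchange, was at 88.1 to 190.0 CPM in vehicle livers (median 134) and 871 to 2286 CPM at 4 h (median 1259.5), a log2 fold change of 3.39 ± 0.21 (SE, adjusted p = 3.21e-12). Pck1, which makes phosphoenolpyruvate, was at 899.9 to 1962 CPM in vehicle livers (median 1259.7) against 5196 to 8613 CPM at 4 h (median 6384), a log2 fold change of 2.39 ± 0.20 (SE, adjusted p = 3.47e-10). G6pc, whose enzyme releases free glucose, was at 79.6 to 391 CPM in vehicle livers (median 279) against 943 to 1621 CPM at 4 h (median 1436), a log2 fold change of 2.40 ± 0.31 (SE, adjusted p = 6.41e-07). The ranges of these 3 genes lay apart, as did those of Fbp1, fructose 1,6-bisphosphatase, which rose by a log2 fold change of 1.08. Mdh2, the mitochondrial malate dehydrogenase, rose by a log2 fold change of 0.61, and its groups overlapped through vehicle replicate 1 (vehicle maximum 399 CPM). Pcx, pyruvate carboxylase, which opens the pathway from pyruvate, fell (log2 fold change -0.65) without overlap. In glycolysis, fructose and glycogen metabolism 5 of 32 were higher and 10 lower, and 8 and 11 without vehicle replicate 1. Pdk1, a kinase that switches off pyruvate dehydrogenase, was at 146 to 205 CPM in vehicle livers (median 178) and 87.2 to 105 CPM at 4 h (median 94.5), a log2 fold change of -0.91 ± 0.08 (SE, adjusted p = 5.79e-10). Slc2a1, a glucose carrier of most tissues, rose by a log2 fold change of 1.02.

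The lists of amino acid breakdown and nitrogen disposal, apart from branched-chain oxidation, held more members called higher than lower. Tat, the first enzyme of tyrosine breakdown, was at 336 to 798 CPM in vehicle livers (median 473) and 3868 to 7121 CPM at 4 h (median 5254). The ranges lay apart. In the list of phenylalanine, tyrosine, tryptophan and histidine breakdown 11 of 18 were higher and 2 lower. Acmsd, which turns the tryptophan pathway away from NAD, rose from a median of 9.54 CPM (range 8.48 to 15.8) to 86.7 CPM (range 56 to 181), a log2 fold change of 3.11 ± 0.26 (SE, adjusted p = 5.13e-10). Nnmt, which methylates nicotinamide, rose from 48.7 to 484 CPM by medians, without overlap.

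For serine, glycine, threonine and lysine 15 of 24 members were higher and none lower by limma (0 at an unadjusted p under 0.05), median 0.46. Aass, the first lysine enzyme, was at 337 to 455 CPM in vehicle livers (median 391) and 956 to 2468 CPM at 4 h (median 1494), a log2 fold change of 1.96 ± 0.13 (SE, adjusted p = 1.83e-11). Agxt, alanine-glyoxylate aminotransferase, and Gnmt, glycine N-methyltransferase, rose by log2 fold changes of 2.48 and 1.58. Got1 and Sds, serine dehydratase, are in this list and in that of gluconeogenesis, and Sds rose by a log2 fold change of 2.13. Asns, which makes asparagine rather than breaking it down, rose too (log2 fold change 2.52), with ranges that overlapped through vehicle replicate 1, at 15 CPM, and 3.26 without it. The urea cycle and ammonia list had 9 of 15 higher and 1 lower, median 0.95, and 2 lower without vehicle replicate 1, without 4 h replicate 4 or without 4 h replicate 8. Cps1, its entry enzyme, rose by 1.28, Ass1, which joins citrulline and aspartate, by 1.60, and Gls2, the glutaminase of liver that releases ammonia, by 1.88. Slc7a2, a cationic amino acid carrier, was at 540.4 to 1021 CPM in vehicle livers (median 836) and 3528 to 7183 CPM at 4 h (median 4123), a log2 fold change of 2.53 ± 0.17 (SE, adjusted p = 8.03e-12). Glul, glutamine synthetase of the cells around the central vein, fell, from 2234 to 3557 CPM (median 2704) to 947 to 1641 CPM (median 1413), a log2 fold change of -1.02 ± 0.13 (SE, adjusted p = 3.59e-07). Branched-chain and propionate oxidation was mixed, 4 of 14 higher and 5 lower, with Dbt, a subunit of the branched-chain ketoacid dehydrogenase, up (log2 fold change 0.65).

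In methionine, transsulfuration and polyamine genes 12 of 25 were higher and 5 lower. Cth, cystathionine gamma-lyase, was at 163 to 279 CPM in vehicle livers (median 198) and 695 to 2348 CPM at 4 h (median 982), a log2 fold change of 2.47 ± 0.20 (SE, adjusted p = 4.37e-10). Mat1a, which makes S-adenosylmethionine in liver, and Cbs, which makes cystathionine, rose by log2 fold changes of 1.12 and 1.28, both with separate ranges. Of 17 folate enzymes 3 were higher and 2 lower, and 5 and 2 without vehicle replicate 1. The mitochondrial Mthfd2, Mthfd1l and Aldh1l2 were the 3, with log2 fold changes of 2.01, 1.71 and 1.27.

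Carriers of the inner mitochondrial membrane had 9 of 24 members higher and 3 lower. Slc25a15, which exchanges ornithine and citrulline, was at 344 to 455 CPM in vehicle livers (median 393) and 1189 to 2298 CPM at 4 h (median 1606), a log2 fold change of 2.07 ± 0.12 (SE, adjusted p = 7.02e-13). Slc25a51, which carries NAD into mitochondria, was at 85.0 to 267 CPM in vehicle livers (median 109) against 338 to 505 CPM at 4 h (median 381), a log2 fold change of 1.78 ± 0.17 (SE, adjusted p = 3.24e-09). Slc25a34 rose by a log2 fold change of 1.77. None of these groups overlapped. At 22 h the median of Slc25a51 was 143 CPM, and the level was below that at 4 h in the direct test (log2 fold change -1.48, adjusted p = 1.24e-07). In the plasma membrane families of amino acid carriers 9 of 27 were higher and 5 lower, and 9 and 3 without vehicle replicate 1. The lower members were also 3 without vehicle replicate 5 or 6, or without 4 h replicate 6 or 7. Slc3a2, the heavy chain of several of them, rose by a log2 fold change of 1.71, and Slc3a1, a related chain, by 1.32, both without overlap. Of 14 zinc and other metal carriers 7 were higher and none lower by limma (0 at an unadjusted p under 0.05), among them Slc39a6 (log2 fold change 1.17), and 1 was lower without vehicle replicate 2.

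Lipid synthesis was lower. Of 22 cholesterol synthesis genes 18 were lower and 1 higher, median -1.14. Hmgcs1, which feeds the mevalonate pathway, was at 609 to 1112 CPM in vehicle livers (median 874) and 120.1 to 295 CPM at 4 h (median 154), a log2 fold change of -2.32 ± 0.18 (SE, adjusted p = 2.25e-10). Mvd, a later step, was at 6.51 to 21.0 CPM in vehicle livers (median 12.1) against 1.07 to 3.73 CPM at 4 h (median 1.65), a log2 fold change of -2.63 ± 0.30 (SE, adjusted p = 8.87e-08). Fdft1, squalene synthase, and Acat2, which joins acetyl groups, fell as well (log2 fold changes -1.29 and -1.08), all with separate ranges. The one member that rose was Scap, the escort of SREBP (log2 fold change 0.25).

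In fatty acid and triglyceride synthesis 10 of 18 were lower and 3 higher, and 10 and 5 without vehicle replicate 1. Scd1, the stearoyl-CoA desaturase, lost more CPM than any other gene tested, from 14313 to 47220.2 CPM (median 33845) to 1791 to 15687 CPM (median 8374), a log2 fold change of -2.05 ± 0.39 (SE, adjusted p = 1.21e-04), and its ranges overlapped. Gpam, which starts glycerolipid synthesis, was at 577 to 1147 CPM in vehicle livers (median 708) and 168 to 278 CPM at 4 h (median 238), a log2 fold change of -1.71 ± 0.13 (SE, adjusted p = 9.35e-11), without overlap. Fasn, fatty acid synthase, and Srebf1, the factor behind many of these genes, fell with overlapping ranges (log2 fold changes -1.55 and -0.65). Fasn reached 5104 CPM in vehicle replicate 1, and its log2 fold change was -1.23 without it. Thrsp, which promotes lipid synthesis, fell without overlap (log2 fold change -2.02). Elovl3, a fatty acid elongase, and Lpin1, a phosphatidate phosphatase, rose (log2 fold changes 1.81 and 1.03), and both are also in the clock output list.

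Lipid droplet and lipolysis genes had 14 of 19 lower and 1 higher. Pnpla3, known for a human variant tied to fatty liver, was at 2.22 to 142 CPM in vehicle livers (median 15.1) and 0.255 to 1.70 CPM at 4 h (median 0.827), a log2 fold change of -4.01 ± 1.12 (SE, adjusted p = 0.00535); its highest value was in vehicle replicate 1, and the log2 fold change was -3.36 without it. Fabp1, the fatty acid binding protein of liver, fell from a median of 5109 to 2506 CPM, without overlap. Lipe, Aqp7 and Cidea, which fat tissue expresses, also fell (log2 fold changes -1.85, -3.24 and -1.96), and vehicle replicate 1 held 344, 56.3 and 385 CPM of them. Without that library their log2 fold changes were -1.25, -2.62 and -1.34, still called. PPARA targets and peroxisomal oxidation had 14 of 26 lower and 3 higher. Ppara itself, the fatty acid sensing receptor, Pex11a, a factor of peroxisome division, and Vnn1, which releases cysteamine, fell (log2 fold changes -0.59, -1.08 and -0.83), all with separate ranges. In mitochondrial oxidation and ketogenesis 4 of 19 were higher and 6 lower, median -0.10, with ranges apart in 2 members upward and 3 downward. Of the higher members, Acsl4, which activates long fatty acids, and Slc22a5, the carnitine carrier, rose by log2 fold changes of 1.08 and 0.92.

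Bile acid genes had 3 of 24 higher and 6 lower. Nr0b2, the repressor SHP, was at 4.28 to 13.3 CPM in vehicle livers (median 7.48) and 1.24 to 3.12 CPM at 4 h (median 2.21), a log2 fold change of -1.87 ± 0.32 (SE, adjusted p = 3.26e-05). Fgfr4, the receptor for the gut hormone that restrains bile acid synthesis, rose (log2 fold change 1.12), and Cyp27a1 of the acidic pathway fell (-0.74). All 3 had separate ranges. Among lipoprotein genes 5 of 25 were higher and 7 lower. Apoa1, the main protein of high-density lipoprotein, was at 3449 to 5059 CPM in vehicle livers (median 4588) against 1835 to 2282 CPM at 4 h (median 2022), a log2 fold change of -1.12 ± 0.13 (SE, adjusted p = 1.10e-07). Pltp, which remodels those particles, fell (log2 fold change -1.53) and Abcg5, which exports sterols into bile, rose (1.33).

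In the tricarboxylic acid cycle 4 of 16 were higher and 5 lower, and 9 and 4 without vehicle replicate 1. Fh1, fumarase, led the rises at 507 to 846 CPM at 4 h (median 598) against 163 to 286 CPM in vehicle livers (median 177), a log2 fold change of 1.76 ± 0.12 (SE, adjusted p = 8.96e-12). Cs, citrate synthase, fell (log2 fold change -0.70) and was at 839 CPM in vehicle replicate 1, with -0.45 without it. Of 35 subunits of oxidative phosphorylation 4 were higher and none lower by limma (0 at an unadjusted p under 0.05), with 12 higher without vehicle replicate 1, and 2 without each of 9 other libraries taken out in turn. Brown fat is rich in these transcripts, and the part of that library's fat RNA in the count was not tested beyond leaving it out.

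Xenobiotic metabolism was lower for many P450 genes. In families 1 to 3, 14 of 35 were lower and 2 higher, where near-identical copies may share reads. Cyp3a11, a main drug-metabolising enzyme, was at 2693 to 4428 CPM in vehicle livers (median 3551) and 380.2 to 1826 CPM at 4 h (median 1249.7), a log2 fold change of -1.67 ± 0.35 (SE, adjusted p = 4.25e-04). Cyp2e1, the ethanol-inducible form, was at 5322 to 11762 CPM in vehicle livers (median 7912) against 1977 to 4509 CPM at 4 h (median 3135), a log2 fold change of -1.32 ± 0.18 (SE, adjusted p = 1.21e-06). Cyp2c39 and Cyp2j5, which act on fatty acids, fell without overlap (log2 fold changes -1.19 and -0.80). The higher members were Cyp2a4 and Cyp2a5, near copies of each other (log2 fold changes 2.28 and 0.98). Por, the reductase that feeds electrons to these enzymes, rose (log2 fold change 0.93). With the 16 libraries fitted alone 4 P450 genes of these families were higher.

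Conjugating enzymes were divided, 11 of 30 higher and 8 lower. Ugt1a9 was at 24.3 to 61 CPM in vehicle livers (median 39) and 212 to 316 CPM at 4 h (median 219.6), a log2 fold change of 2.63 ± 0.16 (SE, adjusted p = 1.47e-12). Ugt1a1, the bilirubin enzyme, was at 209 to 394 CPM in vehicle livers (median 289.8) against 98.9 to 148 CPM at 4 h (median 109.5), a log2 fold change of -1.32 ± 0.12 (SE, adjusted p = 1.66e-09). Ugt1a5 fell (log2 fold change -2.78). These genes share their last exons, so how reads were divided between them is uncertain. Gstp1, a glutathione transferase with a near copy in Gstp2, was at 63.6 to 152 CPM in vehicle livers (median 91.2) against 323 to 705 CPM at 4 h (median 419.7), a log2 fold change of 2.14 ± 0.20 (SE, adjusted p = 2.58e-09). Of 15 carboxylesterases 10 were lower and 2 higher, median -1.05, and Ces1g was at 263 to 497 CPM in vehicle livers (median 379.8) and 23.7 to 50.7 CPM at 4 h (median 41.6), a log2 fold change of -3.33 ± 0.20 (SE, adjusted p = 1.47e-12). Members of this family are close copies. Among organic ion carriers 5 of 18 were higher and 6 lower, with the cation carrier Slc22a3 and the prostaglandin carrier Slco2a1 up (log2 fold changes 2.21 and 1.28) and the anion carrier Slc22a7 down (-2.38).

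Nuclear receptors had 10 of 40 higher and 14 lower. Nr1i3, the drug sensor CAR, was at 100.3 to 172 CPM in vehicle livers (median 111) and 21.7 to 40.5 CPM at 4 h (median 33.9), a log2 fold change of -1.97 ± 0.18 (SE, adjusted p = 2.15e-09). The groups did not overlap. Of 30 liver transcription factors 10 were higher and 8 lower. Onecut2, a factor of the hepatocyte and bile duct lineages, and Atf5 rose (log2 fold changes 0.72 and 1.23), and Nfib fell (-0.42). In the list of glucocorticoid response genes 10 of 21 were higher and 4 lower. Sgk1, a kinase of sodium transport, rose from 24.6 to 36.3 CPM (median 29.1) to 101 to 180.0 CPM (median 143), a log2 fold change of 2.23 ± 0.22 (SE, adjusted p = 1.21e-08), while Fkbp5, a standard target, fell (-0.88) with overlapping ranges. Leaving out vehicle replicate 2 or 7, or 4 h replicate 5, 6 or 7, ended the call of Fkbp5.

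**Figure D4:**
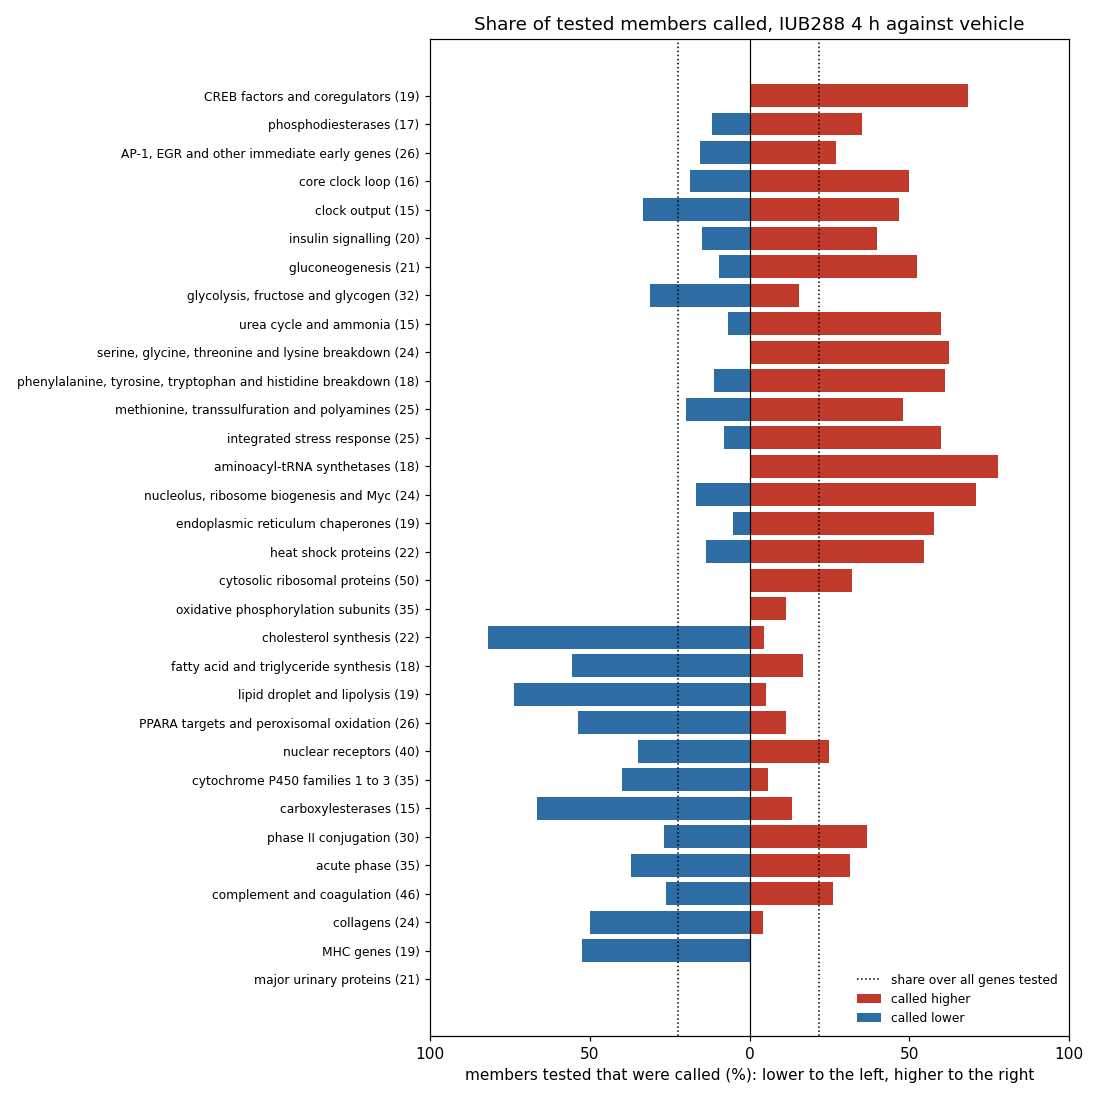
Bars give, for 32 gene groups, the share of tested members called higher (to the right) and lower (to the left) at 4 h against vehicle, in percent, with the number tested in brackets, and dotted lines mark the shares over all genes tested, 21.7% and 22.5%. Aminoacyl-tRNA synthetases (14 of 18) had the longest bar to the right and cholesterol synthesis (18 of 22) to the left.

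Stress and translation genes were mostly higher. In the integrated stress response 15 of 25 were higher and 2 lower, median 0.82. Atf4, its central factor, was at 58.6 to 85.8 CPM in vehicle livers (median 69.4) and 109 to 145 CPM at 4 h (median 128), a log2 fold change of 0.84 ± 0.09 (SE, adjusted p = 3.49e-08). Ddit3, the factor CHOP, rose by a log2 fold change of 1.60 and Sesn1, a sestrin that p53 induces, fell (-0.81). Of 18 aminoacyl-tRNA synthetase genes, which load transfer RNAs, 14 were higher and none lower by limma (0 at an unadjusted p under 0.05). Aars, for alanine, was at 189.6 to 240.4 CPM in vehicle livers (median 213) against 372 to 628 CPM at 4 h (median 464), a log2 fold change of 1.14 ± 0.09 (SE, adjusted p = 2.05e-10), and Eprs, for glutamate and proline, rose by 1.02. Endoplasmic reticulum chaperones had 11 of 19 higher and 1 lower. Eif2ak3, the stress kinase PERK, Atf6, a stress sensor, and Ero1a, an oxidase of protein folding, rose (log2 fold changes 0.80, 0.70 and 0.67), and Xbp1, the factor of the other arm, was the one that fell (-0.50). Heat shock proteins had 12 of 22 higher and 3 lower, led by the mitochondrial Hspa9 (log2 fold change 0.91), with its partner Hspd1 up by 0.47.

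In the list of nucleolus, ribosome biogenesis and Myc genes 17 of 24 were higher and 4 lower. Gnl3, the nucleolar protein nucleostemin, was at 39.9 to 49.4 CPM in vehicle livers (median 43.1) and 74.4 to 88.5 CPM at 4 h (median 82.2), a log2 fold change of 0.91 ± 0.06 (SE, adjusted p = 2.42e-12). Ncl, nucleolin, and Gnl2 rose by log2 fold changes of 0.43 and 0.44. Cytosolic ribosomal proteins had 16 of 50 higher and none lower by limma (0 at an unadjusted p under 0.05), with 9 higher when library totals were the scaling and 1 lower without 4 h replicate 8. Rpl13a led them (log2 fold change 0.66). NRF2, glutathione and NADPH genes had 8 of 32 higher and 6 lower, heme and iron genes 9 of 24 and 5, and autophagy and lysosome genes 10 of 29 and 7, or 5 higher with library totals. Sqstm1, the autophagy receptor p62, and Ctsl, a lysosomal protease, rose (log2 fold changes 0.92 and 1.05), while Taldo1 of the pentose phosphate pathway fell (-0.78, and -0.65 without vehicle replicate 1). Ftl1, a ferritin chain, and Txnrd1, a thioredoxin reductase, rose by log2 fold changes of 0.49 and 0.50.

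Secreted proteins went both ways, acute phase genes 11 of 35 higher and 13 lower, complement and coagulation genes 12 of 46 each way. Orm3, an orosomucoid, was at 10.8 to 23.8 CPM in vehicle livers (median 16.4) and 0.219 to 1.87 CPM at 4 h (median 1.63), a log2 fold change of -3.81 ± 0.31 (SE, adjusted p = 3.71e-10). Itih2, a heavy chain of inter-alpha-trypsin inhibitor, was at 875 to 1506 CPM in vehicle livers (median 1255) against 2729 to 4411 CPM at 4 h (median 2938), a log2 fold change of 1.39 ± 0.11 (SE, adjusted p = 2.02e-10). C3, the central complement protein, rose by a log2 fold change of 0.65, from a median of 7142 to 11029 CPM, and Alb, serum albumin, fell (-0.38) with overlapping ranges. Hpx, which binds free heme, and C8b of the membrane attack complex rose (log2 fold changes 0.83 and 1.00), and C1s1, which starts the complement cascade, fell (-0.75). Cfd, a fat-derived complement factor, fell (log2 fold change -3.04), was at 26.6 CPM in vehicle replicate 1 and had -2.52 without it. Among hormones and growth factors 10 of 33 were higher and 8 lower. Gdf15, a stress hormone, was at 9.41 to 17.0 CPM at 4 h (median 12.7) against 1.88 to 6.92 CPM in vehicle livers (median 3.39), a log2 fold change of 1.98 ± 0.20 (SE, adjusted p = 1.56e-08), and Agt, angiotensinogen, rose by 1.03. In the growth hormone and IGF axis 5 of 24 were higher and 4 lower, among them Igfbp1 and Socs2 from above and Igfbp4 (log2 fold change 0.40). Serpins had 10 of 29 higher and 7 lower, where the Serpina1 copies Serpina1d and Serpina1a, which share reads, rose by log2 fold changes of 0.84 and 0.71.

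Markers of liver zones differed in direction. Of 16 periportal markers 12 were higher and 3 lower, and their summed level was 16631 to 29105 CPM at 4 h against 8271 to 12055 CPM in vehicle. Several of them, such as Pck1, Cps1 and Sds, also stand in the metabolic lists above. Cyp2f2 went the other way, at 418 to 814 CPM at 4 h (median 624) and 728 to 900 CPM in vehicle replicates 2 to 8 (median 827). Of 18 pericentral markers 3 were higher and 8 lower. Rgn, which acts in vitamin C synthesis, and Cyp27a1 fell together with Glul and Cyp2e1 (log2 fold changes -1.65, -0.74, -1.02 and -1.32), and Znrf3, a brake on Wnt receptors, rose (0.90). Oat lay higher as well, without overlap, at 2175 to 5811 CPM at 4 h (median 3195). It was at most 1475 CPM in vehicle replicates 2 to 8 and at 1149 CPM in vehicle replicate 1. Summed pericentral levels overlapped, 10034 to 17030.4 CPM at 4 h against 13269 to 25353 CPM.

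Markers of other liver cells were lower where they were called. Of 20 stellate cell and fibroblast markers 11 were lower, of 18 endothelial markers 7, of 17 Kupffer cell and macrophage markers 5, of 10 cholangiocyte markers 5, and none was higher by limma in any of the 4 lists (1 at an unadjusted p under 0.05, in the macrophage list, where 1 was called higher without vehicle replicate 5). Summed stellate and fibroblast levels were 581 to 984 CPM at 4 h, 1003 to 1435 CPM in vehicle replicates 2 to 8 and 2072 CPM in vehicle replicate 1. Acta2, smooth muscle actin, Postn, periostin, and Tagln, transgelin, fell with overlapping ranges, by log2 fold changes of -1.38, -0.94 and -0.85 and by -1.15, -0.82 and -0.88 without that library. In the collagen family 12 of 24 were lower and 1 higher, and the higher one, Col12a1, rose to 18.6 to 46 CPM (median 33.9) from a vehicle median of 8.75 CPM, a log2 fold change of 1.42 ± 0.31 (SE, adjusted p = 5.45e-04), with vehicle replicate 1 at 63.4 CPM. Col27a1 fell (log2 fold change -1.85) and Col18a1, which gives endostatin, as well (-0.45), without overlap. Among macrophage markers the complement genes C1qa and C1qb and the chemokine receptor gene Cx3cr1 fell (log2 fold changes -0.61, -0.68 and -0.85), and among bile duct markers the tight junction gene Cldn3 and the mucin gene Muc1 (-0.87 and -0.88). The lower share of macrophage markers was 29.4%, against 22.5% over all genes tested. Their summed levels overlapped, 767 to 1097 CPM at 4 h and 681 to 1721 CPM in vehicle. Mpeg1 and Marco had higher medians at 4 h (412 and 11.0 CPM) than in vehicle replicates 2 to 8 (311 and 4.89 CPM). Summed cholangiocyte levels were 84.4 to 279 CPM at 4 h and 127 to 589 CPM in vehicle. Endothelial sums were 609.7 to 719 CPM at 4 h and 571 to 1002 CPM in vehicle. Without 4 h replicate 6, 4 endothelial markers were lower, and with the 16 libraries fitted alone 11 were.

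For cells of the blood the counts rested more on single libraries. In the list of 18 lymphocyte markers (T, NK and B cells) 7 members were lower and none higher by limma (0 at an unadjusted p under 0.05), and 3 were lower without vehicle replicate 1, without 4 h replicate 3 or without 4 h replicate 8, and 4 without 4 h replicate 4. Their summed level was 76.9 CPM in vehicle replicate 1, 17.1 to 29.3 CPM in the other vehicle livers and 13.2 to 21.0 CPM at 4 h. Of 5 neutrophil markers none was called by limma (1 at an unadjusted p under 0.05), with adjusted p = 0.0529 for Csf3r, 0.0972 for Il1b and 0.142 for S100a9, and Csf3r was called lower without vehicle replicate 2, 4 or 7. Of 19 MHC genes, which often share reads, 10 were lower and none higher by limma (0 at an unadjusted p under 0.05), and H2-Aa, a class II chain, was at 3.57 to 6.68 CPM at 4 h (median 5.08) and 8.21 to 31.8 CPM in vehicle livers (median 11.2), a log2 fold change of -1.37 ± 0.30 (SE, adjusted p = 5.41e-04). Interferon-stimulated genes had 9 of 23 lower and none higher by limma (0 at an unadjusted p under 0.05), or 7 and 1 without vehicle replicate 1, and chemokines and their receptors 7 of 25 lower and 1 higher, or 4 and 1 without vehicle replicate 1. Of 7 erythroid markers tested 5 were lower and 1 higher. The globin genes, which are near copies of each other, fell, with log2 fold changes of -1.17 for Hba-a1 and -1.29 for Hbb-bt. The higher one was Alas2, the first enzyme of heme synthesis in red cells, at 50.4 to 85.3 CPM in vehicle livers (median 72.9) and 84.0 to 142 CPM at 4 h (median 105), a log2 fold change of 0.53 ± 0.13 (SE, adjusted p = 0.00177). What part the cell makeup of the pieces had in these results was not tested.

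**Figure D5:**
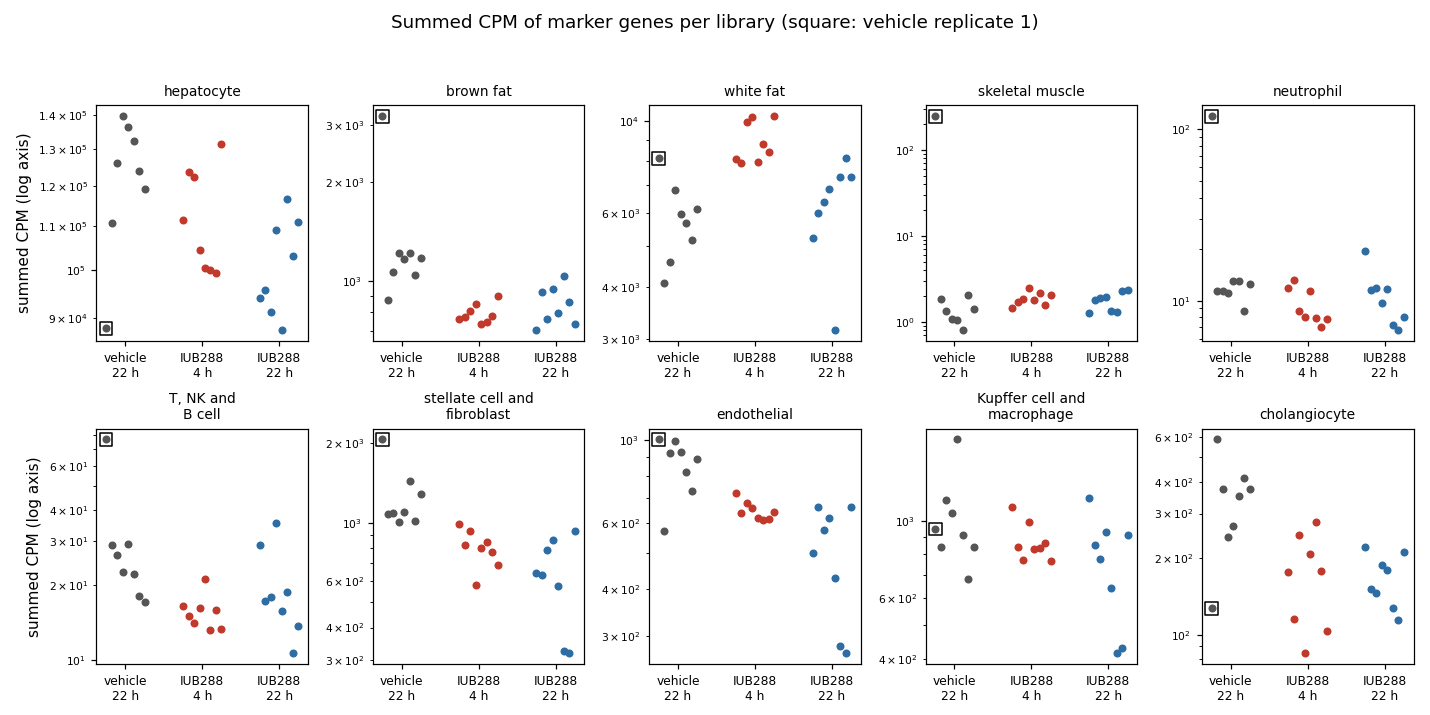
Points are the summed CPM of marker genes in single libraries on a log axis, 8 per group, and the square marks vehicle replicate 1. That library was highest of all 24 in brown fat, skeletal muscle, neutrophil, lymphocyte, stellate and endothelial markers and lowest of all vehicle livers in hepatocyte markers, at 88064 CPM. The white fat list holds Pck1 and Car3, which hepatocytes also express and which make up most of its sum at 4 h.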

How the data were processed

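Messenger RNA of 24 livers was sequenced, 8 per group. The authors deposited whole-number read counts per gene for all livers in 1 table. Per the submitters' processing notes, cutadapt, GSNAP and GRCm38 were used, and the counter and its strand setting are not given in the sources used here, so overlapping and antisense genes may share reads. The table lists 22355 genes with their Entrez numbers sorted as text, character by character, and ends at 50932. The 33.1% of RefSeq protein-coding genes whose numbers sort after it are not analysed here. Of 21896 RefSeq protein-coding genes 11716 are among the genes listed. Gene lists are therefore incomplete, and counts cover tested members only. Fatty acid and triglyceride synthesis, for one, was drawn up with 31 genes, of which 18 were present.

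The count filter asked for 10 counts at the median library size, in at least as many libraries as the smallest group holds, and 15 counts in total. Genes passing it (11508 genes holding 99.92% of counts) were scaled by TMM (factors 0.897 to 1.06) and fitted with limma-voom (limma 3.58.1, R 4.3.3) over the 3 groups (21 residual degrees of freedom, prior 4.08), with Benjamini-Hochberg adjustment over all genes. The fold test used limma's treat at 1.5-fold. The edgeR quasi-likelihood test, which the design names as the main test, was not run, and DESeq2, named as an alternative, was not run either: the quoted layout of the deposited table was recorded under another unit than counts, and limma-voom took their place. The fit was also run on simulated counts in which few genes were changed. That setting is unlike these data, and no conclusion on the calls here is drawn from it. Tables and figures used Python 3.11.15, pandas 2.3.3, numpy 2.4.6 and matplotlib 3.10.9. Replicates differed beyond sampling noise in every pair. Adjusted p-values are those of limma.

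Members and gene lists were chosen with earlier results of these data known. The rule for named genes took the 20 largest rises and falls in log2 fold change (at least 5 CPM, ranges apart), the 10 largest gains and losses in CPM, the 3 smallest p of each list or family (at least 1 CPM), all members of the clock, CREB and phosphodiesterase lists, and Gcgr, Ucp1 and Srebf1, leaving out unnamed gene models. Genes outside it (Adcy8, Alas2, Aqp7, Asns, Atf3, Atf4, Cidea, Cs, Cyp2a4, Cyp2a5, Ddit3, Egr1, Fasn, Fkbp5, Fos, G6pc, Gstp2, Klf10, Lipe, Mdh2, Myc, Nr0b2, Nr1i3, Pcx, Scap, Sds, Slc34a1, Xbp1 and the transcripts under other observations) were chosen after their values were seen. Some genes that the rule took are not reported here. Alternatives were another scaling, other filters, other sets of libraries, blocks and quality weights.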

Additional observations from a re-analysis of the deposited data

Results flagged for a closer look

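Across 438 groups of 8 livers for the named genes, 62 values lay so far from the next that their gap to it, as a share of the group's range, exceeded Dixon's 95% critical value, and chance gives about 1 in 20 groups. Of these, 38 were in vehicle replicate 1. Both counts include Ucp1, which was outside the 438 groups and was added by its level alone, with no gap share computed. Ucp1 was at 1388 CPM there, against 0.576 CPM in the next liver. That library was the highest vehicle liver for Acta2 (15.6 CPM), Adcy6 (118 CPM), Aqp7 (56.3 CPM), Asns (15 CPM), Atf3 (16.4 CPM), Btg1 (107 CPM) and Cfd (26.6 CPM). It was also highest for Cidea (385 CPM), Col12a1 (63.4 CPM), Col27a1 (134 CPM), Cs (839 CPM), Csf3r (29.4 CPM), Ddit3 (10.6 CPM) and Dusp8 (13 CPM). Further highest values there were those of Fasn (5104 CPM), Fh1 (286 CPM), Il1b (54.9 CPM), Lipe (344 CPM), Mdh2 (399 CPM), Nfil3 (23.5 CPM) and Nr4a1 (7.15 CPM). The same library led with Nr4a3 (5.15 CPM), Pde1b (6.40 CPM), Pde4b (52.9 CPM), Pde4d (47.7 CPM), Pnpla3 (142 CPM), Ppargc1b (92.7 CPM) and S100a9 (17.4 CPM). Also above the other vehicle livers there stood Slc22a3 (47.2 CPM), Slc25a51 (267 CPM), Taldo1 (270.4 CPM) and Tg (0.176 CPM). It was the lowest vehicle liver for C1s1 (772 CPM), Fbp1 (743 CPM), Gcgr (86.3 CPM), Hpx (1998 CPM) and Onecut2 (197 CPM).

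4 h replicate 1 was the highest of its group for Slc22a7 (3.68 CPM). 4 h replicate 2 was the highest of its group for S100a9 (2.51 CPM). 4 h replicate 3 was the highest of its group for Pcx (454 CPM). 4 h replicate 4 was the highest of its group for Akap11 (136 CPM), Gucy2c (31.2 CPM), Pde7b (75.4 CPM), Ppargc1a (235 CPM), R3hdml (1.68 CPM), Rpl13a (323 CPM), Slc7a2 (7183 CPM), Tg (4.77 CPM) and Ugt1a9 (316 CPM) and the lowest of its group for Taldo1 (66.3 CPM). 4 h replicate 5 was the highest of its group for Chrna4 (5.24 CPM), Eif2ak3 (76.4 CPM) and Ugt1a5 (18.6 CPM). 4 h replicate 7 was the highest of its group for Serpina4-ps1 (0.588 CPM) and Slc39a6 (12.4 CPM). 4 h replicate 8 was the highest of its group for Gstp2 (3.27 CPM) and Per3 (9.17 CPM). Vehicle replicate 2 was the highest of its group for Rpl13a (216 CPM) and the lowest of its group for Pcx (528 CPM). Vehicle replicate 5 was the highest of its group for Atf1 (50.2 CPM) and C1qb (64.8 CPM).

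For 7 named genes the difference from vehicle was called in opposite directions at 4 h and 22 h after IUB288, and the direct test of 22 h against 4 h was called as well. Both differences use the same vehicle livers. The log2 difference of 22 h against 4 h follows from them in the same fit, so its call is no separate evidence. Cry1 was at 1.5 at 4 h and -0.57 at 22 h, a log2 difference of -2.06. Dusp1 was at 1.82 at 4 h and -0.71 at 22 h, a log2 difference of -2.53. Nr1d1 was at -0.78 at 4 h and 0.63 at 22 h, a log2 difference of 1.41. Pde4d was at 1.12 at 4 h and -0.40 at 22 h, a log2 difference of -1.52. Pde9a was at -0.47 at 4 h and 0.64 at 22 h, a log2 difference of 1.11. R3hdml was at -3.08 at 4 h and 1.58 at 22 h, a log2 difference of 4.66. Xbp1 was at -0.50 at 4 h and 0.34 at 22 h, a log2 difference of 0.84.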

How the results depend on the processing

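Of 24 alternative settings 16 left out 1 library each. They gave 2389 to 2587 genes higher, 2348 to 2590 lower, 485 to 521 and 689 to 801 at least 2-fold higher and lower, and 351 to 391 higher by more than 1.5-fold. With genes of at least 5 CPM in 8 libraries, which leaves fewer genes to test, 223 were at least 2-fold higher and 263 lower, and 223 and 215 passed the 1.5-fold test. Library totals as the scaling gave 2061 higher and 2877 lower, relative log expression factors 2546 and 2543, no filter 2442 and 2480, the 16 libraries alone 2436 and 2624, a block of lower and higher mouse numbers 2519 and 2652, and quality weights, chosen after seeing the data, 2829 and 2949. The median log2 fold change of all genes was -0.07 with TMM and -0.13 with library totals. Same-numbered livers did not deviate together (correlations -0.15 to 0.11, the own number best for 3 of 8), and a replicate block gave 2500 higher and 2925 lower and called the neutrophil markers Csf3r, Il1b and S100a9 lower. Of 212 called genes named in the text 211 kept their call in every alternative that tested them, and the other, Fkbp5, had log2 fold changes of -0.81 to -0.66 where its call was lost; no direction of a called gene turned. Csf3r, not called, passed in 7 alternatives. The alternatives with the edgeR quasi-likelihood test and DESeq2 were not run. The smallest library had 14 M counts, and genes near 1 CPM rest on few reads there.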

Other observations

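Other families and lists are given by their counts, where 44.2% of all genes tested were called. Of 37 interleukin and TNF family receptors 8 were higher and 14 lower (9 lower among genes of at least 5 CPM in 8 libraries), and Tnfrsf19, a receptor of the TNF family, fell from a median of 22.6 to 5.51 CPM, a log2 fold change of -2.13 ± 0.18 (SE, adjusted p = 4.20e-10), without overlap. Of 11 P450 genes of family 4, which hydroxylate fatty acids, 4 were higher and 1 lower, and Cyp4f15 rose by a log2 fold change of 0.90. Of 12 connexins and claudins 2 were higher and 4 lower, and Gjc3, a connexin, rose by a log2 fold change of 1.41. Of 39 p53 targets and cell cycle genes 8 were higher and 7 lower, or 4 lower without vehicle replicate 2. Of 33 ABC transporters 5 were higher and 7 lower, or 4 lower without vehicle replicate 3, vehicle replicate 5 or 4 h replicate 4. Of 27 proteasome subunits 4 were higher and 3 lower, or 2 and 7 with library totals as the scaling. Of 21 major urinary proteins, male-typical liver products whose near-identical copies share reads, none was called by limma (1 at an unadjusted p under 0.05), and 1 was lower without vehicle replicate 5 or 6.

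Some low or unnamed transcripts stood out after their values were seen. Ren1, renin, had no count in any of the 8 vehicle livers and 2.17 to 4.07 CPM at 4 h, with a median of 4.96 CPM at 22 h. Tg, thyroglobulin, was at 0 to 0.176 CPM in vehicle livers and 1.36 to 4.77 CPM at 4 h, and Ptk6, an intracellular tyrosine kinase, at 0.805 to 1.46 and 0 to 0.0736 CPM. Gm11843, annotated as a pseudogene, was at 10.6 to 34.6 CPM in vehicle livers (median 26.9) and 1501 to 2145 CPM at 4 h (median 1651), with a median of 103 CPM at 22 h and a log2 fold change of 6.31 at 4 h. Whether its reads belong to another gene of like sequence was not tested.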
